A study of Mus musculus with 16 samples.

Results

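Neurons of the injured mouse spinal cord were compared between Ryk conditional knockout (cKO) mice and wild-type (WT) mice, gene by gene, with the mouse as the replicate. The neurons were taken as all cells that the deposited cell annotation puts in its neuronal cluster, number 3 of 17. In the 11 injured mice compared these were 2092 neurons, out of 2486 neurons in the whole series of 16 mice.

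The study profiled single cells of the spinal cord by droplet 3' sequencing, uninjured or at 1, 7 or 14 d after a cervical dorsal column lesion, and deposited the number of unique molecular identifiers (UMIs, 1 per captured transcript) of each gene in each cell. The cKO mice carried Rykfl/fl,GFAPcreERT2 and the WT mice Ryk+/+,GFAPcreERT2. All were 8 to 10 weeks old, of both sexes by the study's methods, and received tamoxifen around the time of surgery, so the control mice carry the Cre transgene and received the same drug. The comparison held 6 cKO mice (2 at each time point) and 5 WT mice (1 (1 d), 2 at 7 d and 2 at 14 d). A sixth WT library, WT 1 d replicate 2, has 1 cell in the deposited table and was left out. Cre is driven by the GFAP promoter, which is active in astrocytes, so neurons are not the cells the design targets. The methods name both GFAPcreERT2 and Aldh1L1 creERT2 animals, and the labels give GFAPcreERT2 for every mouse used here. The gene list holds no Cre or reporter sequence, so recombination was not measured.

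Ryk is an atypical receptor tyrosine kinase that binds Wnt proteins and is known for turning away growing corticospinal axons. The neurons whose cell bodies lie in the cord are excitatory and inhibitory interneurons, projection neurons and motor neurons, and the injured corticospinal and sensory axons belong to cells that lie elsewhere. After injury, cord neurons lose inputs, and they can change genes for axon growth, stress and transmission.

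Ryk itself was read in neurons first, as CPM, the UMIs of a gene per 1e+06 neuron UMIs of that mouse. At 1 d its CPM was 0 in the WT mouse and 21.4 and 59.8 in the cKO mice. At 7 d it was 44.6 and 49.8 in WT and 113 and 49.3 in cKO, and at 14 d it was 37.2 and 50.8 in WT and 44.9 and 38.9 in cKO. The groups overlapped at 7 d in their lower values and at 14 d throughout, and the highest value, in cKO 7 d replicate 1, rests on 4 UMIs. The log2 fold change of Ryk, cKO over WT, was 0.11 ± 0.33 (standard error; edgeR quasi-likelihood test with Benjamini-Hochberg adjustment, adjusted p = 1.00). Outside neurons, where the astrocytes are, Ryk was 46.8 to 85.9 CPM in the cKO mice and 53.6 to 81.3 CPM in the WT mice. Ryk levels of the genotypes thus overlapped in both kinds of cells. Which exons the floxed allele loses was not looked up, and 3' tags outside a deleted stretch would still be counted, so these values check the labels in neither direction.

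Depth differed widely between mice within each genotype. Neuron UMIs per mouse ran from 7570 in WT 1 d replicate 1, which has 18 neurons, to 2145779 in WT 14 d replicate 2, which has 319. The other WT mice had 57 and 157 neurons at 7 d and 142 in replicate 1 at 14 d. The cKO mice had 96 and 348 neurons (1 d), 77 and 230 (7 d), and 297 and 351 (14 d). The shallow mice are the 4 with animal numbers from 3814 to 3821 (WT 1 d replicate 1, WT 7 d replicate 1, cKO 1 d replicate 1 and cKO 7 d replicate 1), with median UMIs per neuron of 317 to 404. The 7 mice with numbers from 10047 to 10117 (3 WT, 4 cKO) hold 98.5% of all neuron UMIs and are called the deep mice below.

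Neurons made up 1.76% of the cells of the WT mouse (1 d), 4.74% and 18.7% of WT cells (7 d), and 14.0% and 24.4% (14 d). In the cKO mice they were 7.85% and 18.9% of cells (1 d), 4.31% and 15.1% (7 d), and 26.2% and 23.5% (14 d). The low shares belong to the shallow mice of both genotypes, and the ranges overlap. On average within a time point the cKO share exceeded the WT share by 5.07 points (exact two-sided permutation of genotype within time points, p = 0.361, smallest p possible 0.00926). In the same exact permutation test the difference in log2 median UMIs per neuron was 0.50 (p = 0.620). With the deposited batch number as a block the share differed by 2.66 points over 5 pairs (exact sign-flip permutation, p = 0.5, smallest possible 0.0625), with cKO higher in 2.

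Several features of the libraries bear on what follows. The names of the cells carry a condition that differs from the deposited condition of the mouse in 6 mice, 3 of them compared here. WT 7 d replicate 2 is named as a WT 1 d mouse, WT 14 d replicate 2 as a cKO 14 d mouse and cKO 14 d replicate 2 as a cKO 7 d mouse. The groups below are those of the labels, and counts with the groups of the cell names stand beside the counts they change. Fits by the cell names hold 12 mice, with uninjured cKO replicate 2 as a WT 7 d mouse, and test 10230 genes. By UMIs of Xist, the transcript of the inactive X, and of Y-linked genes over all cells, WT 7 d replicate 2, WT 14 d replicate 2 and cKO 1 d replicate 1 read as female and the other 8 as male. In the deep mice sex and genotype are therefore largely confounded: all 4 cKO mice read as male, and 2 of the 3 WT mice as female. Barcodes were shared between mice for 13 neurons' barcodes within neurons, and for 22 against any cell of another mouse.

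The neuronal label held against its markers. The summed level of 16 neuron markers, led by the long non-coding RNA Meg3, was 11.5 times higher in neurons than in the other cells of the same mouse (median over mice), and no marker was at 0. In neurons the sum ran from 15272 to 33818 CPM in the 5 WT mice (median 17145) and from 9415 to 32121 CPM in the 6 cKO mice (median 14788). Both ends of both ranges follow depth, with the highest values in shallow mice. RNA of other types was also counted in these cells: 10 oligodendrocyte markers, led by Mbp, summed to a median of 7708 CPM in cKO neurons, and 10 astrocyte markers to 2653 CPM. Free RNA was not removed, so low levels of glial genes in neurons cannot be told apart from droplet background.

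Over the 3 time points, with the time point as a stratum, 10 of 11495 genes tested passed (edgeR quasi-likelihood test, Benjamini-Hochberg adjusted p under 0.05), which is 0.0870% of those tested. Of these, 7 were higher in cKO neurons (0.0609%) and 3 lower (0.0261%). Before adjustment, 357 genes had p under 0.05, of which 281 were higher. The median log2 fold change of all genes tested was 0.09. The genes that rose were the neuropeptide S receptor gene Npsr1, its non-coding neighbour Gm10701, the folate enzyme gene Aldh1l1 and its neighbour Slc41a3, the beta-globin gene Hbb-bt, the myeloid calcium-binding protein gene S100a9 and the pseudogene Gm11942. Those that fell were Tsix, the antisense transcript of Xist, the interferon-induced membrane protein gene Ifitm3, and Pisd, which encodes the mitochondrial enzyme that makes phosphatidylethanolamine. The count depends on the method and on single mice: DESeq2 called 1 gene (Npsr1), limma-trend 0, and edgeR with the conditions of the cell names 0. Without cKO 7 d replicate 2 it was 2, and without WT 7 d replicate 2, WT 14 d replicate 2 or cKO 14 d replicate 1 it was 4 each time.

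Npsr1 encodes a G protein-coupled receptor for neuropeptide S. Its CPM in neurons was 0 in the WT mouse (1 d), 0 and 9.96 in the WT mice (7 d), and 6.77 and 17.2 (14 d). In the cKO mice it was 0 and 82.8 (1 d), 56.4 and 131 (7 d), and 63.3 and 102 (14 d). All 4 deep cKO mice lay above all WT mice, and so did the shallow cKO 7 d replicate 1 on its 2 UMIs, while cKO 1 d replicate 1 had none. The 419 cKO UMIs were spread over many cells, with at most 10 in 1 neuron and between 43 and 79 neurons with a UMI in each deep cKO mouse, a share that also depends on depth. Its log2 fold change was 2.84 ± 0.38 (edgeR quasi-likelihood, adjusted p = 4.25e-10), and Npsr1 passed with each of the 11 mice left out in turn. DESeq2 gave 2.95 (adjusted p = 0.00624), edgeR with the conditions of the cell names 3.09 (adjusted p = 0.0880), and limma-trend did not call it. All 4 high mice are cKO by label and by cell name, and WT 14 d replicate 2, named as cKO in its cells, had 17.2 CPM.

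In cKO mice Npsr1 was not highest in neurons. Pooled over mice it was at 444 CPM in cKO and 14.0 CPM in WT in the deposited oligodendrocyte cluster 4, against 92.7 CPM in cKO neurons. In WT mice no order can be given: 37 of the 43 UMIs in neurons are from WT 14 d replicate 2, and in WT 14 d replicate 1 oligodendrocyte cluster 4 was at 69.0 CPM against 6.77 CPM in neurons. Oligodendrocyte RNA was also counted in the neurons: the 10 markers, led by Mbp, summed to 3963 CPM in WT (1 d), 5532 and 7151 (7 d), and 5904 and 6547 (14 d). In cKO neurons the sums were 5304 and 8384 CPM (1 d), 7583 and 11700 (7 d), and 7833 and 6345 (14 d). Both cKO mice were above the WT mice of the same day at 1 and 7 d, and 1 of 2 at 14 d. None of these markers was at 0 or passed, and the part of oligodendrocyte RNA in the Npsr1 result was not tested.

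Aldh1l1 encodes a cytosolic 10-formyltetrahydrofolate dehydrogenase and is widely used as a marker of astrocytes. Its CPM in WT neurons was 0 (1 d), 0 and 24.9 (7 d), and 37.2 and 34.5 (14 d). In cKO neurons it was 21.4 and 131 (1 d), 28.2 and 194 (7 d), and 133 and 188 (14 d). The 4 deep cKO mice, from 131 upward, stood clear of the deep WT mice, whose highest value was 37.2, and the 2 shallow cKO mice, each with 1 UMI, fell among the WT values. The log2 fold change was 2.47 ± 0.35 (edgeR quasi-likelihood, adjusted p = 1.17e-08), and it too passed with each of the 11 mice left out. DESeq2 gave 2.47 without a call (adjusted p = 0.143), and grouping by the cell names gave 2.10 (adjusted p = 1.00).

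The difference in Aldh1l1 was much larger than that of the other astrocyte genes in the same cells. All 10 astrocyte markers tested had a log2 fold change above 0, but only Aldh1l1 passed, and their median was 0.48. The glutamate transporter gene Slc1a2 was at 0.49 and the bicarbonate transporter gene Slc4a4 at 0.44, neither past the threshold. In sum, the 10 astrocyte markers in WT neurons were at 793 CPM (1 d), 1249 and 2184 (7 d), and 3323 and 3037 (14 d). In cKO neurons they were at 984 and 3262 CPM (1 d), 1607 and 4356 (7 d), and 2674 and 2632 (14 d). These sums overlap, and at 14 d they were lower in both cKO mice than in both WT mice, the opposite order to Aldh1l1. No astrocyte marker was at 0 in these neurons, and the part of astrocyte RNA in the Aldh1l1 result was not tested beyond these values.

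Both genes stood next to a second gene that also rose. Gm10701, an antisense transcript with no protein product, was at 0 CPM in WT (1 d), 0 and 7.47 in WT (7 d), and 16.9 and 18.6 (14 d). In cKO it was at 0 and 41.8 CPM (1 d), 0 and 41.3 (7 d), and 49.0 and 61.6 (14 d). The deep cKO mice were again above every WT mouse and the shallow cKO mice were at 0. Its log2 fold change was 1.87 ± 0.39 (edgeR quasi-likelihood, adjusted p = 0.00449). The adjusted p was 0.159 without WT 7 d replicate 2, 0.312 without cKO 7 d replicate 2 and 0.419 without WT 14 d replicate 2. Gm10701 overlaps Dpy19l1 on the other strand and the use of strand in counting is not given in the sources used here, so its reads are uncertain. Dpy19l1 itself did not pass. For the single-cell samples the paper names hGFAP-CreERT2, and its methods name an Aldh1L1 creERT2 line as well. Which transgenes the 4 deep cKO mice carry beyond their labels is not known here. Whether transgene RNA is counted under any of these genes was not tested.

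Slc41a3 encodes a magnesium transporter of the solute carrier family. In WT neurons it was at 0 CPM (1 d), 0 and 0 (7 d), and 10.2 and 4.19 (14 d). In cKO neurons it was at 21.4 and 21.3 CPM (1 d), 0 and 28.7 (7 d), and 14.3 and 17.0 (14 d). Each deep cKO mouse was above each WT mouse, with 14 to 25 UMIs in each. On the log2 scale the difference was 2.21 ± 0.52 (edgeR quasi-likelihood, adjusted p = 0.0239), and without WT 7 d replicate 2 the adjusted p was 0.534. Only 6 of the 11 fits with a mouse left out could test the gene. Among the deep mice alone it was at 2.15 (adjusted p = 0.0672), and with no filter on expression at 2.15 (adjusted p = 0.0525).

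**Figure D1:**
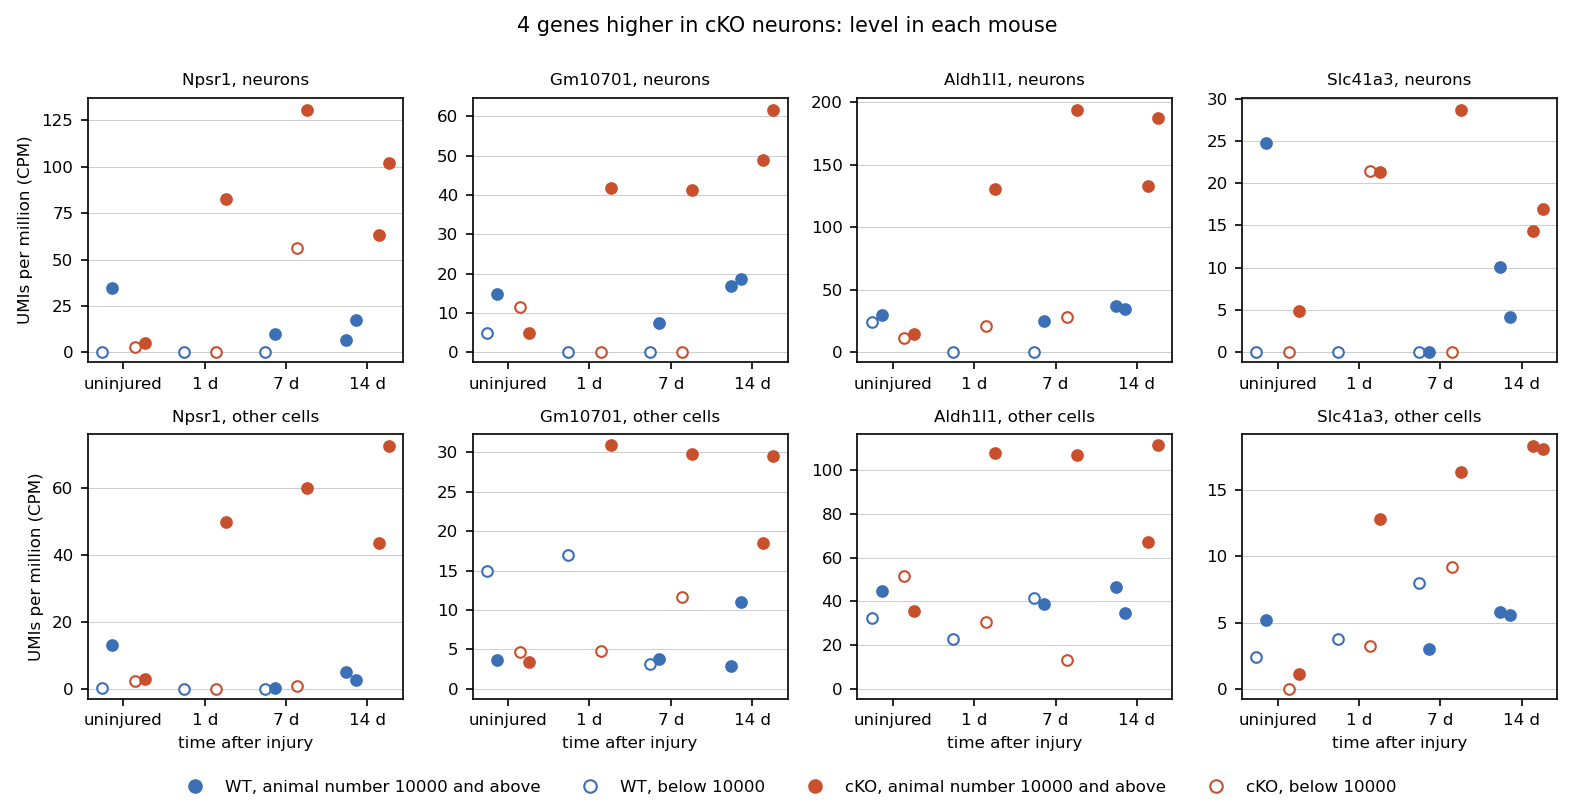
Level of Npsr1, Gm10701, Aldh1l1 and Slc41a3 in each mouse, in CPM, against time after injury, in neurons (top) and in all other cells (bottom), with WT in blue, cKO in orange, 5-digit animal numbers as filled and 4-digit numbers as open points. The 4 deep injured cKO mice are the 4 highest of the injured mice for each gene in both kinds of cells, except for Slc41a3 in neurons, where a shallow cKO mouse is at 21.4 CPM.

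The genes form neighbouring pairs on the chromosome (GRCm38 coordinates, GENCODE annotation). Aldh1l1 lies at chr6:90486427-90600203 and Slc41a3 at chr6:90604725-90646412, both on the plus strand, with a gap of 4521 bases and no annotated gene between them. Npsr1 lies at chr9:24097996-24316398 and Gm10701 at chr9:24341657-24418709, both on the plus strand, with a gap of 25258 bases and again no gene between. Ryk is on the same chromosome as Npsr1, at chr9:102834917-102908305, 78.5 Mb away. These positions were looked up after the values were seen.

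The rest of each neighbourhood did not pass the test. Within 1 Mb of Npsr1, 7 further genes were tested, 6 of them above 0, with a median log2 fold change of 0.41 and a range of -0.32 to 0.90. Within 1 Mb of Aldh1l1, 10 further genes were tested, 5 above and 5 below 0, with a median of -0.01 and a range of -0.77 to 0.50. Around Ryk, 12 further genes had a median of 0.25, and none passed. Among the genes tested around Npsr1 and Aldh1l1, only the adjacent pairs passed. As 0.0870% of all genes tested passed, the lack of a call among so few further genes says nothing about these neighbourhoods.

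**Figure D2:**
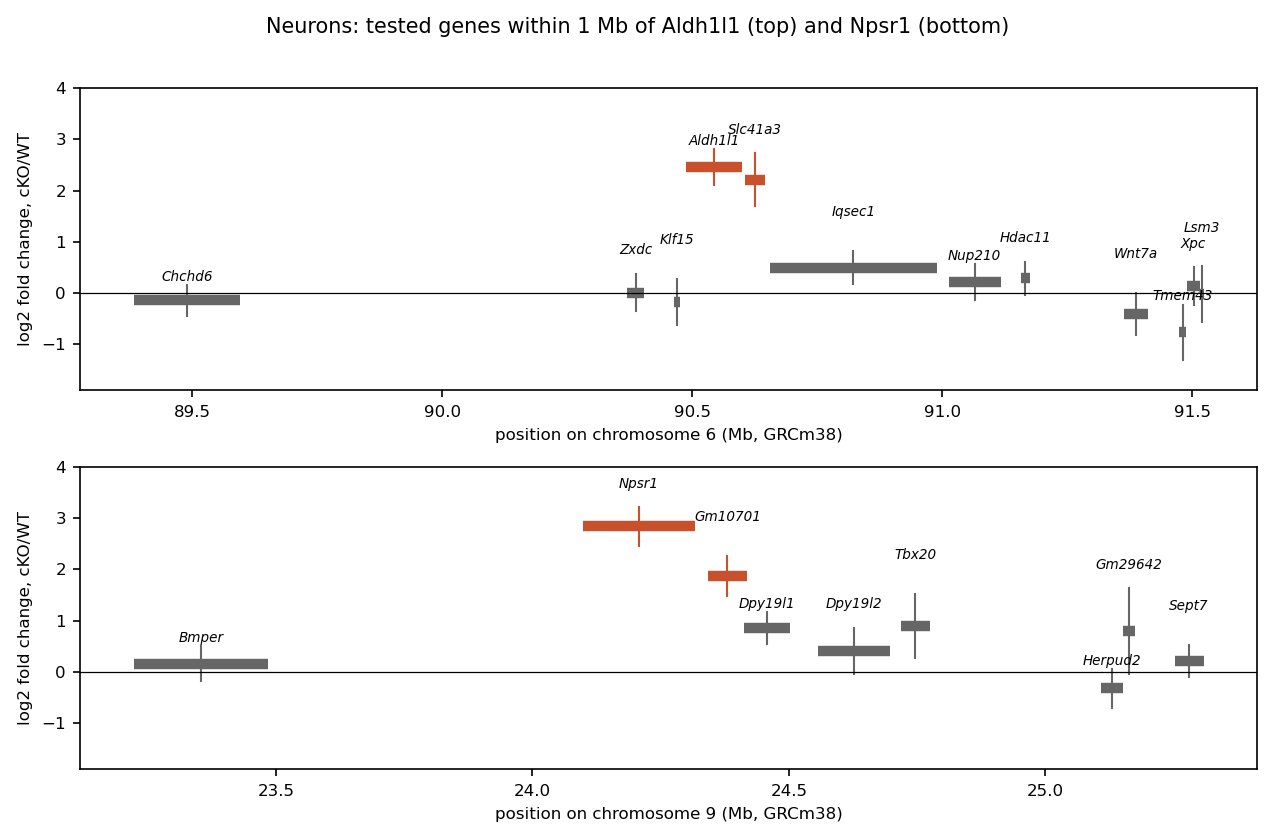
Log2 fold change (cKO over WT in neurons, vertical lines: ± 1 standard error) of each gene tested within 1 Mb of Aldh1l1 (top) and Npsr1 (bottom), drawn as bars from gene start to gene end in Mb. Genes with adjusted p under 0.05 are in orange: they are Aldh1l1 with Slc41a3, and Npsr1 with Gm10701.

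The same mice stood out outside neurons. In all cells other than neurons, Npsr1 was at 49.9, 59.9, 43.4 and 72.3 CPM in the 4 deep cKO mice, at 0 and 0.833 in the 2 shallow cKO mice, and at most 5.04 in the 5 WT mice. Aldh1l1 in other cells was at 67.4 to 112 CPM in the deep cKO mice, 30.6 and 13.3 in the shallow cKO mice and 22.7 to 46.4 in WT. For both genes the 4 deep cKO mice were the 4 highest in other cells, as they were in neurons, but cKO 7 d replicate 1, with 56.4 CPM of Npsr1 in neurons, was among the WT values there. Fitted alone in the same way, the other cells gave 0 of 17496 genes past the threshold (edgeR quasi-likelihood; 632 at an unadjusted p under 0.05; no other tool was run there). There the log2 fold changes were 4.48 ± 1.11 for Npsr1, 1.03 ± 0.49 for Aldh1l1, 1.69 ± 0.50 for Gm10701 and 1.57 ± 0.36 for Slc41a3. The neuron-to-other ratio of Aldh1l1 differed by 0.75 on the log2 scale (exact two-sided permutation p = 0.0185, adjusted 0.185 over the 10 genes), and that of Npsr1 by 0.36 (exact permutation p = 0.0926, adjusted 0.463). With a smallest p of 0.00926 no single gene can pass this test after adjustment over 10 genes, so it carries no information on whether neurons and other cells differ.

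Uninjured mice, which were not part of the comparison, were read beside it by their values alone. In their neurons Npsr1 was at 0 and 34.6 CPM in the WT mice and at 2.89 and 4.92 CPM in the cKO mice, and Aldh1l1 at 24.5 and 29.7 CPM in WT and 11.5 and 14.7 CPM in cKO. Both uninjured cKO mice were thus below the injured deep cKO mice, and the highest Npsr1 value of the 4 was that of WT replicate 2. The cell names turn this order: they give that mouse as an uninjured cKO mouse and cKO replicate 2 as a WT 7 d mouse, so which genotype the 34.6 CPM belongs to is uncertain. Whether the genotype difference itself differs between injured and uninjured neurons was not tested.

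Hbb-bt, a beta-globin gene of red blood cells, rose, with most of its UMIs in 1 cell. Its CPM was 0 in WT (1 d), 0 and 7.47 in WT (7 d), and 10.2 and 0.466 (14 d). In cKO it was 0 and 23.9 (1 d), 56.4 and 704 (7 d), and 5.10 and 2.83 (14 d). Above every WT mouse were 3 cKO mice, cKO 1 d replicate 2 (28 UMIs), cKO 7 d replicate 1 (2 UMIs) and, far above, cKO 7 d replicate 2, where 1 neuron holds 596 of 614 UMIs, and the other 3 fell among the WT values. The log2 fold change was 4.52 ± 0.87 (edgeR quasi-likelihood, adjusted p = 0.0226), and 1.57 without that mouse (adjusted p = 1.00). The call was also lost without WT 1 d replicate 1 (adjusted p = 1.00), cKO 1 d replicate 2 (1.00), WT 7 d replicate 1 (0.257), WT 7 d replicate 2 (0.323), WT 14 d replicate 2 (0.119) or cKO 14 d replicate 1 (0.133). It was lost too with another way of scaling mice for depth, RLE in place of TMM (0.578), without the neurons that the deposited table moved in from cluster 2 (0.144) and in the deep mice alone (1.00). Of the 5 red blood cell markers 4 were tested, all above 0 with a median of 2.97, led by Hbb-bs, and in sum they reached 7285 CPM in cKO 7 d replicate 2 against at most 402 CPM in any WT mouse. Globin genes are near-identical copies, so the split between Hbb-bt and Hbb-bs is uncertain, and the part of red blood cell RNA in this result was not tested.

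S100a9, a subunit of the calprotectin complex of neutrophils, was at 0 CPM in WT (1 d), 0 and 2.49 in WT (7 d), and 16.9 and 2.80 (14 d). In cKO it was at 0 and 32.4 CPM (1 d), 0 and 49.3 (7 d), and 27.6 and 7.08 (14 d). The groups overlap at 14 d and in the shallow mice, which had none. Its log2 fold change was 2.36 ± 0.50 (edgeR quasi-likelihood, adjusted p = 0.00575). The adjusted p was 0.395 without WT 7 d replicate 2 and 1.00 without cKO 7 d replicate 2, WT 14 d replicate 2 or cKO 14 d replicate 1. In other cells S100a9 was at 386 CPM in WT (1 d), 6.38 and 0.380 (7 d), and 942 and 0.753 (14 d), against 192 and 930 CPM in cKO (1 d), 116 and 3850 (7 d), and 524 and 312 (14 d). The deposited myeloid cluster 16 held 39163 of its UMIs in 75 cKO cells and 2815 in 19 WT cells. Its level there was 93304 CPM in cKO and 104391 CPM in WT. Of 7 neutrophil-like markers 3 were tested in neurons, all above 0 with a median of 1.14, and S100a8, the partner of S100a9, was at 1.14 without passing. Their summed level, led by Csf3r, was 0 in both shallow WT mice, 17.4 in WT 7 d replicate 2, 71.1 and 22.4 CPM at 14 d, and 21.4 to 126 CPM in the cKO mice. The part of myeloid RNA in this result was not tested.

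Ifitm3, an interferon-induced protein that is abundant in vessel and immune cells, fell. In WT neurons it was at 0 CPM (1 d), 0 and 44.8 (7 d), and 54.1 and 28.0 (14 d). In cKO neurons it was at 0 and 60.6 CPM (1 d), 56.4 and 6.88 (7 d), and 7.14 and 7.08 (14 d). Both cKO mice at 14 d and the deep cKO mouse at 7 d were below the deep WT mice, while the deep cKO mouse at 1 d had the highest value of all. In log2 the difference was -1.80 ± 0.40 (edgeR quasi-likelihood, adjusted p = 0.0106). Without cKO 14 d replicate 2 the adjusted p was 0.155, without cKO 14 d replicate 1 0.133, without WT 14 d replicate 1 0.127, without WT 7 d replicate 2 0.359 and without cKO 7 d replicate 2 0.840. The sign depended on the method: limma-trend gave 0.0938, means over cells 0.280 and a fit on the means of all 8 conditions 1.17, none passing. The medians over all genes in these fits were 0.60, 0.283 and 2.01, and Ifitm3 lay below each. In other cells Ifitm3 was at 174 to 624 CPM in cKO and 207 to 844 CPM in WT. Beside it, 10 endothelial markers had a median log2 fold change of -0.43 in neurons (3 above and 7 below 0) and 7 tested pericyte markers -0.60 (2 above, 5 below), none past the threshold, with the pericyte gene Rgs5 at -1.02 (adjusted p = 0.486, edgeR quasi-likelihood). The summed endothelial markers, led by Flt1, were at 132 CPM in WT (1 d), 491 and 1437 in WT (7 d), and 1357 and 1346 (14 d), against 984 and 1178 CPM in cKO (1 d), 789 and 1345 (7 d), and 1051 and 772 (14 d). Summed levels over time differed by 0.78 for endothelial and 0.28 for pericyte markers in log2 (exact permutation p = 0.306 and 0.685). With 1 mouse left out at a time these differences ran from -0.14 to 1.02 and from -0.52 to 0.59, so their sign is not settled. The endothelial 132 CPM in WT at 1 d is under that mouse's floor of 396 CPM. At 7 d the pericyte median was 1.20. No marker of either list was at 0, and the part of vessel RNA in the Ifitm3 result was not tested.

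Tsix followed the sex of the mice. In WT neurons it was at 0 CPM (1 d), 0 and 24.9 (7 d), and 0 and 14.4 (14 d). In cKO neurons it was at 42.8 and 0 CPM (1 d), 0 and 0 (7 d), and 2.04 and 0 (14 d). The 3 mice above 10 CPM are the 3 that read as female, 1 of them cKO. Xist was at 299, 269 and 349 CPM in those mice and at most 44.6 CPM, from 1 UMI, in the others. The log2 fold change of Tsix was -3.79 ± 0.71 (edgeR quasi-likelihood, adjusted p = 0.000409), and with sex as a term, an alternative chosen after seeing the data, it was 2.89 (adjusted p = 1.00). Its adjusted p was 0.179 without WT 7 d replicate 2, 0.312 without cKO 7 d replicate 2 and 0.114 without cKO 14 d replicate 2. Tsix and Xist overlap on opposite strands, so their reads are uncertain.

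With sex as a term, the other 9 genes also missed the threshold. Npsr1 was then at 2.60 ± 0.62 (edgeR quasi-likelihood, adjusted p = 0.0551) and Aldh1l1 at 2.05 ± 0.51 (adjusted p = 0.0773), both near their first values. Pisd went from -1.48 to -1.41 and Ifitm3 from -1.80 to -2.07 (edgeR quasi-likelihood, adjusted p = 0.107). Gm10701 went from 1.87 to 1.55 ± 0.63 and Gm11942 from 3.18 to 2.40 ± 1.06, and none of these passed. The rest moved further with the term: S100a9 went from 2.36 to 0.62, Hbb-bt from 4.52 to 2.35 and Slc41a3 from 2.21 to 1.39, each with adjusted p = 1.00. In the 8 mice that read as male, 3 WT and 5 cKO, Npsr1 was at 3.99 ± 0.89 (adjusted p = 0.0173) and Aldh1l1 at 2.59 ± 0.65 (adjusted p = 0.0735), while Gm10701 was at 2.02, Gm11942 at 6.13, Ifitm3 at -1.70, Pisd at -1.39, S100a9 at 0.72, Hbb-bt at 2.35 and Slc41a3 at 1.14, none of these passing. With the term, 4 genes passed, led by the vesicular glutamate transporter gene Slc17a7, and in male mice 10, of which 1 (Npsr1) was among the first 10. Sex and genotype cannot be told apart in the deep mice beyond these fits.

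Gm11942, a processed pseudogene, and Pisd complete the list. Gm11942 was at 0 CPM in 4 WT mice and 1.86 in WT 14 d replicate 2, and in cKO it was at 0 and 34.1 (1 d), 0 and 0 (7 d), and 19.4 and 9.91 (14 d). It was thus seen in 3 of 6 cKO mice and in neither at 7 d. In log2 it differed by 3.18 ± 0.71 (edgeR quasi-likelihood, adjusted p = 0.0111), with adjusted p = 0.0700 without cKO 7 d replicate 2 and 1.00 without WT 14 d replicate 2 or cKO 14 d replicate 1. In other cells it was at 41.6 CPM in WT (1 d), 49.4 and 0.380 (7 d), and 0 and 0.151 (14 d), against 41.9 and 42.3 CPM in cKO (1 d), 63.3 and 0.246 (7 d), and 49.6 and 30.9 (14 d). There 5 of 6 cKO mice and 2 of 5 WT mice were above 30 CPM, and the log2 fold change was 2.14 ± 1.69 without passing. Uninjured cKO replicate 1 had 104 CPM in neurons, with 11 of its 36 UMIs in 1 neuron.

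Pisd was at 0 CPM in WT neurons (1 d), 44.6 and 62.2 (7 d), and 67.7 and 54.5 (14 d), and in cKO neurons at 42.8 and 24.8 (1 d), 0 and 21.8 (7 d), and 15.3 and 19.8 (14 d). The 44.6 CPM of the shallow WT mouse at 7 d is 1 UMI out of 22414, and the shallow cKO mouse had none in 35472. With the order of that pair resting on 1 UMI, both cKO mice were below both WT mice at 7 and 14 d. In other cells no such order was seen, with a log2 fold change of 0.01 ± 0.15 against -1.48 ± 0.35 in neurons (edgeR quasi-likelihood, adjusted p = 0.0288), and the neuron-to-other ratio differed by -0.26 (exact permutation p = 0.407). Adjusted p in neurons was 0.508 without WT 7 d replicate 2, 0.312 without cKO 7 d replicate 2 and 0.142 without WT 14 d replicate 1. It was 0.321 without WT 14 d replicate 2, 0.561 without cKO 14 d replicate 1, 0.142 without cKO 14 d replicate 2, and 0.103 with the replicate block. With the means of all 8 conditions the value was 1.21 ± 3.86 (adjusted p = 0.875), below the median of 2.01 over all genes in that fit. Its near-identical copy Pisd-ps1 was at -2.07 ± 0.56 at 14 d and did not pass (edgeR quasi-likelihood, adjusted p = 0.399), and how reads divide between the copies is uncertain.

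**Figure D3:**
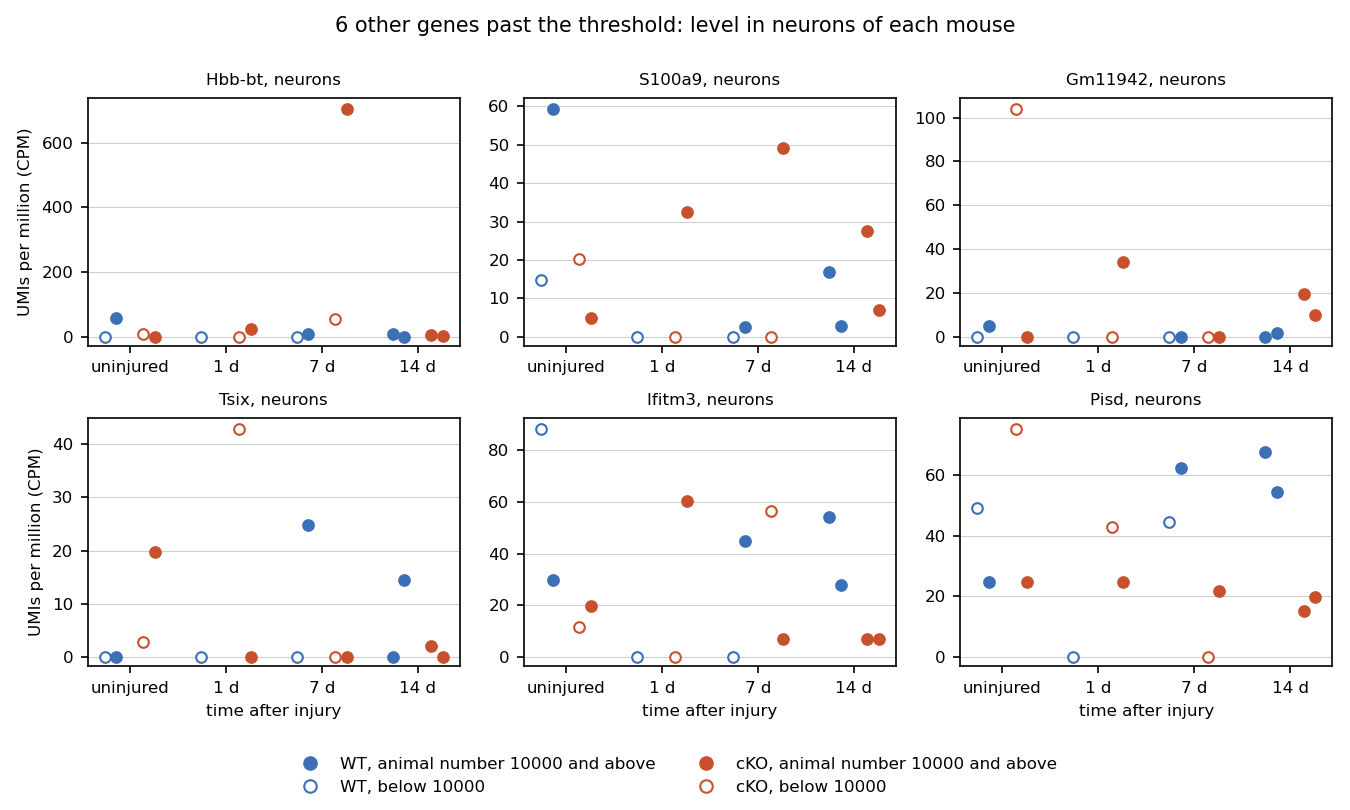
Level in neurons of each mouse, in CPM, of the other 6 genes with adjusted p under 0.05, against time after injury, with WT in blue, cKO in orange, 5-digit animal numbers as filled and 4-digit numbers as open points. Hbb-bt stands at 704 CPM in 1 cKO mouse at 7 d, and Pisd is lower in both cKO mice than in both WT mice at 7 d and at 14 d. The order of the open Pisd points at 7 d rests on 1 UMI in the WT mouse.

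At 7 d alone, 2 cKO against 2 WT mice, 3 genes passed (0.0261% of those tested), all higher. Npsr1 was at 3.59 ± 0.75 (edgeR quasi-likelihood, adjusted p = 0.0102), Aldh1l1 at 2.74 ± 0.61 (adjusted p = 0.0284) and Hbb-bt at 6.03 ± 0.87 (adjusted p = 4.92e-05). Over the pooled neurons of each genotype there were 116 against 4 UMIs of Npsr1, a CPM ratio of 13.5 (95% exact interval 5.15 to 50.6, counting error only). Of these, 114 are from cKO 7 d replicate 2 and all 4 from WT 7 d replicate 2, so the ratio mostly sets 1 mouse against 1. Hbb-bt had 616 against 3 UMIs, a ratio of 95.9. As 596 of the 616 lie in 1 neuron no counting interval is given for it, and without cKO 7 d replicate 2 the log2 fold change of Hbb-bt was 2.58 (adjusted p = 0.878). For Slc41a3, with 25 UMIs in cKO, all from cKO 7 d replicate 2, and 0 in WT, the pooled cKO level was at least 3.89-fold the WT floor of 3 counts. The gene was not called at 7 d. With the replicate block only Hbb-bt passed, and Npsr1 had adjusted p = 0.0702 and Aldh1l1 0.0866. DESeq2 and limma-trend called 0 genes, and 394 genes had an unadjusted p under 0.05 in edgeR. The count was 0 without WT 7 d replicate 2 or cKO 7 d replicate 2, 1 without WT 14 d replicate 1 and 6 without cKO 7 d replicate 1. Without WT 7 d replicate 1 it was 3, of which only Npsr1 was among the first 3 (Aldh1l1 adjusted p = 0.119, Hbb-bt 0.517), and Aldh1l1 also missed without cKO 14 d replicate 1 (0.0781) or replicate 2 (0.0820). The log2 fold change of Aldh1l1 was -0.10 without cKO 7 d replicate 2, beside a median of -0.44 over all genes. It then rests on 1 UMI in the cKO mouse left. Grouped by the cell names, with uninjured cKO replicate 2 as a WT 7 d mouse, 22 genes passed, 19 of them lower. Npsr1 and Aldh1l1 were among the 22 (adjusted p = 0.0219 and 0.0168, edgeR quasi-likelihood) and Hbb-bt was not. With sex as a term 0 genes passed.

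The genes next in line at 7 d did not pass. Among those with values above 0 were S100a9, the growth factor-binding protein gene Igfbp5 (2.83 ± 0.80) and the calcium-binding protein gene S100a6 (2.76 ± 0.81), with adjusted p from 0.365 to 0.582 (edgeR quasi-likelihood). Among those with values below 0 were the endothelial receptor gene Kdr (-2.85 ± 0.75), the neuropeptide gene Nmu (-2.41 ± 0.71), the cation channel gene Trpc5 (-1.69 ± 0.53) and Lmx1b (-1.44 ± 0.52), a transcription factor gene of dorsal horn excitatory neurons. Adjusted p of the latter 4 genes ran from 0.326 to 1.00 in the same test.

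At 14 d, 2 genes passed (0.0174%), both higher: Npsr1 at 2.60 ± 0.47 (edgeR quasi-likelihood, adjusted p = 0.00032) and Aldh1l1 at 2.31 ± 0.43 (adjusted p = 0.000503). All 4 mice are deep here, and pooled UMIs were 206 against 39 for Npsr1, a ratio of 5.39 (3.81 to 7.80, counting error only), and 395 against 85 for Aldh1l1, a ratio of 4.74 (3.74 to 6.07). DESeq2 and limma-trend called 0 genes, with 231 genes at an unadjusted p under 0.05 in edgeR, and the replicate block called the same 2 genes. Without WT 14 d replicate 1 there were 5 calls, among them the Y-linked genes Eif2s3y, Uty, Ddx3y and Kdm5d, without WT 14 d replicate 2 there was 1 (Slc17a7), without cKO 14 d replicate 1 there were 3, and without cKO 14 d replicate 2 there were 0. Npsr1 had adjusted p = 0.0958, 0.205 and 0.140 without WT 14 d replicate 1, WT 14 d replicate 2 and cKO 14 d replicate 2, and Aldh1l1 0.106, 0.706 and 0.140. Grouped by the cell names, 1 gene passed (Slc17a7), and Npsr1 (2.54) and Aldh1l1 (1.24) both had adjusted p = 1.00 (edgeR quasi-likelihood). With sex as a term 3 passed, neither of these among them, at adjusted p = 0.717 for both.

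Next in line at 14 d, without passing, the values above 0 included Gm11942 (3.18 ± 0.75) and 5033421B08Rik (2.09 ± 0.51). Their adjusted p was 0.0948 and 0.130 (edgeR quasi-likelihood). Among the values below 0 were Ifitm3 (-2.18 ± 0.55, adjusted p = 0.154), the endothelial surface protein gene Ly6a (-1.74 ± 0.50), the pericyte gene Vtn (-1.48 ± 0.43) and the selenoprotein gene Selenow (-1.26 ± 0.40). Pisd-ps1, Tsix and Pisd were also among the 10 smallest p values below 0.

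At 1 d, 0 genes passed in edgeR's quasi-likelihood test (0% of those tested), against 2 in DESeq2 and 2142 in limma-trend, and 560 had an unadjusted p under 0.05. This comparison rests on a WT mouse with 18 neurons and 7570 UMIs, in which 8032 genes tested (69.9%) have no UMI. Its floor of 3 counts is 396 CPM, above the level of each of the 10 genes of the main comparison in both cKO mice, so no fold can be given for them at 1 d. Of the genes with the smallest p, none passing, mt-Atp8 was at 0 in WT and at 406 and 830 CPM in cKO. The mean of these 2 values was 1.56-fold the floor, and the lower value was just above it. The axonal adhesion gene Nfasc was at 0 in WT and at 684 and 633 CPM in cKO, with their mean 1.66-fold the floor. The ferritin gene Fth1, with 21 UMIs in the WT mouse, was at 2774 CPM there and at 4106 and 6408 CPM in cKO (adjusted p = 0.247). The spread of the lone WT mouse is assumed to equal that of the other groups, and without cKO 1 d replicate 1 there were 6 calls. Grouped by the cell names there were 11, and there WT 7 d replicate 2 counts as a second WT mouse at 1 d.

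The genotype difference at 14 d was also set against its mean over 1 and 7 d, and 0 genes passed (edgeR quasi-likelihood, 0%; 439 at an unadjusted p under 0.05; DESeq2 0, limma-trend 166, cell names 3). Without WT 7 d replicate 2 there was 1, mt-Atp8. This contrast includes 1 d, where most genes have no UMI in the WT mouse, and its median over all genes was -3.00, so for Npsr1 and Aldh1l1, at 0 in that mouse, the lack of a call carries no information. The immediate early gene Fos had one of the smaller p values (unadjusted 0.00834, adjusted 0.830), with 2 UMIs, or 264 CPM, in WT 1 d replicate 1 and at most 28.2 CPM in any other of the mice compared.

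Groups of genes chosen for their role in neurons were then read by their counts and medians, beside the median of 0.09 over all genes tested. The medians were not tested, and summed levels of cell type lists were compared by permutation. With 0.0870% of all genes tested passing, a list of this size with 0 calls says nothing about its genes as a group. Of the 3 markers of neurons with the highest level, Meg3 was at -0.05 ± 0.35, the splicing factor gene Rbfox1 at -0.04 ± 0.35 and Snhg11 at -0.10 ± 0.33. None of the 16 neuron markers passed, and their median was 0.08 with a range of -0.13 to 0.60. Among excitatory markers the vesicular transporter gene Slc17a6 was at -0.04 and Lmx1b at -0.59, with a median of -0.10 over 5 tested, 4 of them below 0. The lowest excitatory marker was at -2.42, and at 7 d their median was -0.97, with none passing. Inhibitory markers had a median of -0.01 over 6, with the glycine transporter gene Slc6a5 at 0.41. Cholinergic markers had a median of 0.25 over 4, with the choline transporter gene Slc5a7 at -0.61 and the peripherin gene Prph at 0.70.

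Read instead as summed levels, the 7 inhibitory markers were at 661 CPM in WT (1 d), 580 and 408 (7 d), and 372 and 425 (14 d), against 406 and 381 in cKO (1 d), 310 and 400 (7 d), and 352 and 397 (14 d). Both cKO mice were below all WT mice at 1 and at 7 d, and at 14 d 1 was below and 1 between the WT mice. The difference was -0.39 in log2 (exact two-sided permutation p = 0.0278, adjusted 0.370 over the 16 cell type lists). Over 11 settings it ran from -0.47 to -0.25, with permutation p from 0.0185 to 0.167. Summed neuron markers differed by -0.41, excitatory markers by -0.33 and cholinergic markers by -0.29 (exact two-sided permutation p = 0.324, 0.324 and 0.306). A negative difference of about this size was thus not particular to the inhibitory markers. With a smallest p of 0.00926 no single list can pass after adjustment over 16, so none passing carries no information. By sum, oligodendrocyte markers differed by 0.50 (exact permutation p = 0.0648), neutrophil-like markers by 0.75 (p = 0.0926), astrocyte markers by 0.51 (p = 0.370) and microglia markers by -0.07 (p = 0.935).

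Genes of transmission had medians over the time points from -0.11 to 0.20. Of 19 genes of synaptic vesicles and release none passed, with a median of 0.13, the calcium sensor gene Syt1 at -0.05 and the fusion protein gene Snap25 at 0.47. Of 15 ionotropic glutamate receptor genes 10 were below 0, with a median of -0.11, and Gria4 at 0.09 and Gria1 at -0.27. GABA and glycine receptor genes had a median of 0.05 over 16, sodium and calcium channel genes 0.02 over 19 and potassium channel genes 0.00 over 20, with Kcnip4 at -0.06. Ion pumps and exchangers had a median of 0.01 over 11, and 14 neuropeptide and calcium-binding protein genes 0.20, with the granin gene Scg2 at -0.06. No member of these lists passed. At 7 d the order differed: 17 of 19 sodium and calcium channel genes (median -0.39), 14 of 15 ionotropic glutamate receptor genes (-0.19) and 14 of 20 potassium channel genes (-0.14) were below 0, beside a median of 0.06 over all genes.

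Genes of axon structure and growth had medians over time from 0.00 to 0.25. Of 25 neurofilament and axonal cytoskeleton genes 23 were above 0, with a median of 0.25 and none past the threshold, and the most abundant were the ankyrin genes Ank2 (0.16 ± 0.33) and Ank3 (0.20 ± 0.34) and Map1b (0.18 ± 0.32). At 7 d the same 25 were 14 above and 11 below 0, and their summed level over time differed by -0.04 in log2. The heavy neurofilament gene Nefh was at 0.29 ± 0.31 and the neuronal nuclear protein gene Rbfox3 (NeuN) at -0.05 ± 0.32. Of 33 axon guidance genes 16 were above and 17 below 0, with a median of 0.00 (-0.30 at 7 d), Robo1 at 0.23, Dcc at 0.11 and Sema6d at 0.22. Of 33 neural adhesion genes 25 were above 0 with a median of 0.11, but at 7 d 21 were below 0 with a median of -0.15, and their summed level over time differed by -0.20 in log2. The adhesion genes Nrcam (0.23 ± 0.32) and Cntn1 (0.06 ± 0.32) did not pass. Receptors for myelin and scar components had a median of 0.08 over 11, with Ptprd at 0.07 and the Nogo gene Rtn4 at 0.41. Of 20 axon injury and regeneration genes 15 were above 0, with a median of 0.14, the growth cone gene Stmn2 at 0.12 and Dpysl3 at 0.02.

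Genes of Wnt signalling, the pathway of Ryk, were read by their own values. Of 31 Wnt receptor and planar cell polarity genes listed 20 were tested, 14 above and 6 below 0, none passing, with a median of 0.16. The scaffold gene Apc was at 0.05, Prickle2 at 0.36 and Prickle1 at 0.16. Of 27 Wnt ligand and inhibitor genes 8 were tested, 7 above 0, with a median of 0.54, and Wnt5b at 1.17 ± 0.37 had the smallest adjusted p (0.552, edgeR quasi-likelihood). Dkk1 had no UMI in these neurons. The secreted protein gene Psap was at 0.06 ± 0.31, and its candidate receptor genes Gpr37 and Gpr37l1 were at 0.56 ± 0.37 and 0.26 ± 0.35, none past the threshold. Neurotrophic factor and receptor genes had a median of 0.15 over 18, with Ntrk2, the receptor for BDNF, at 0.12.

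Stress and metabolic genes were read in the same way. Immediate early genes had a median of 0.23 over 10 and a difference of -0.37 by summed level, with Jund at 0.64 and Fos at 0.48, and the tissue was dissociated with a blocker of transcription present. Unfolded protein response genes had a median of 0.00 over 9, with the chaperone gene Hspa5 at -0.44, heat shock genes 0.12 over 12 and cell death genes 0.26 over 14. Of 7 interferon and antigen presentation genes tested 5 were above and 2 below 0, with a median of 0.10 and B2m at 0.10. Only Ifitm3 passed, as lower, beside 0.0261% of all genes tested. Nuclear-encoded oxidative phosphorylation genes were above 0 in 26 of 30, with a median of 0.30, mitochondrially encoded transcripts in 14 of 15 (0.28, but -0.19 by summed level), glycolysis genes in 13 of 15 (0.21) and cytosolic ribosomal protein genes in 30 of 36 (0.17). Glucocorticoid-response genes had a median of 0.27 over 12, iron and heme genes 0.17 over 10 with Fth1 at 0.91, Hox genes -0.15 over 13, and nuclear long non-coding RNAs -0.10 over 11.

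Markers of glia and of vessels in the neurons gave the remaining medians. Oligodendrocyte markers were above 0 in 10 of 10, with a median of 0.37 and the myelin gene Mbp at 0.79. Precursor markers were at 0.36 over 7 and microglia markers at 0.29 over 10. Fibroblast markers were above 0 in 7 of 8 with a median of 0.78, and Schwann cell markers in 6 of 6 with 0.59. Ependymal markers were at -0.10 over 4, and 1 of 9 immune markers was tested, Lyz2 at 0.85. None of these passed, and the part of such RNA in the medians of the neuronal groups was not tested.

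**Figure D4:**
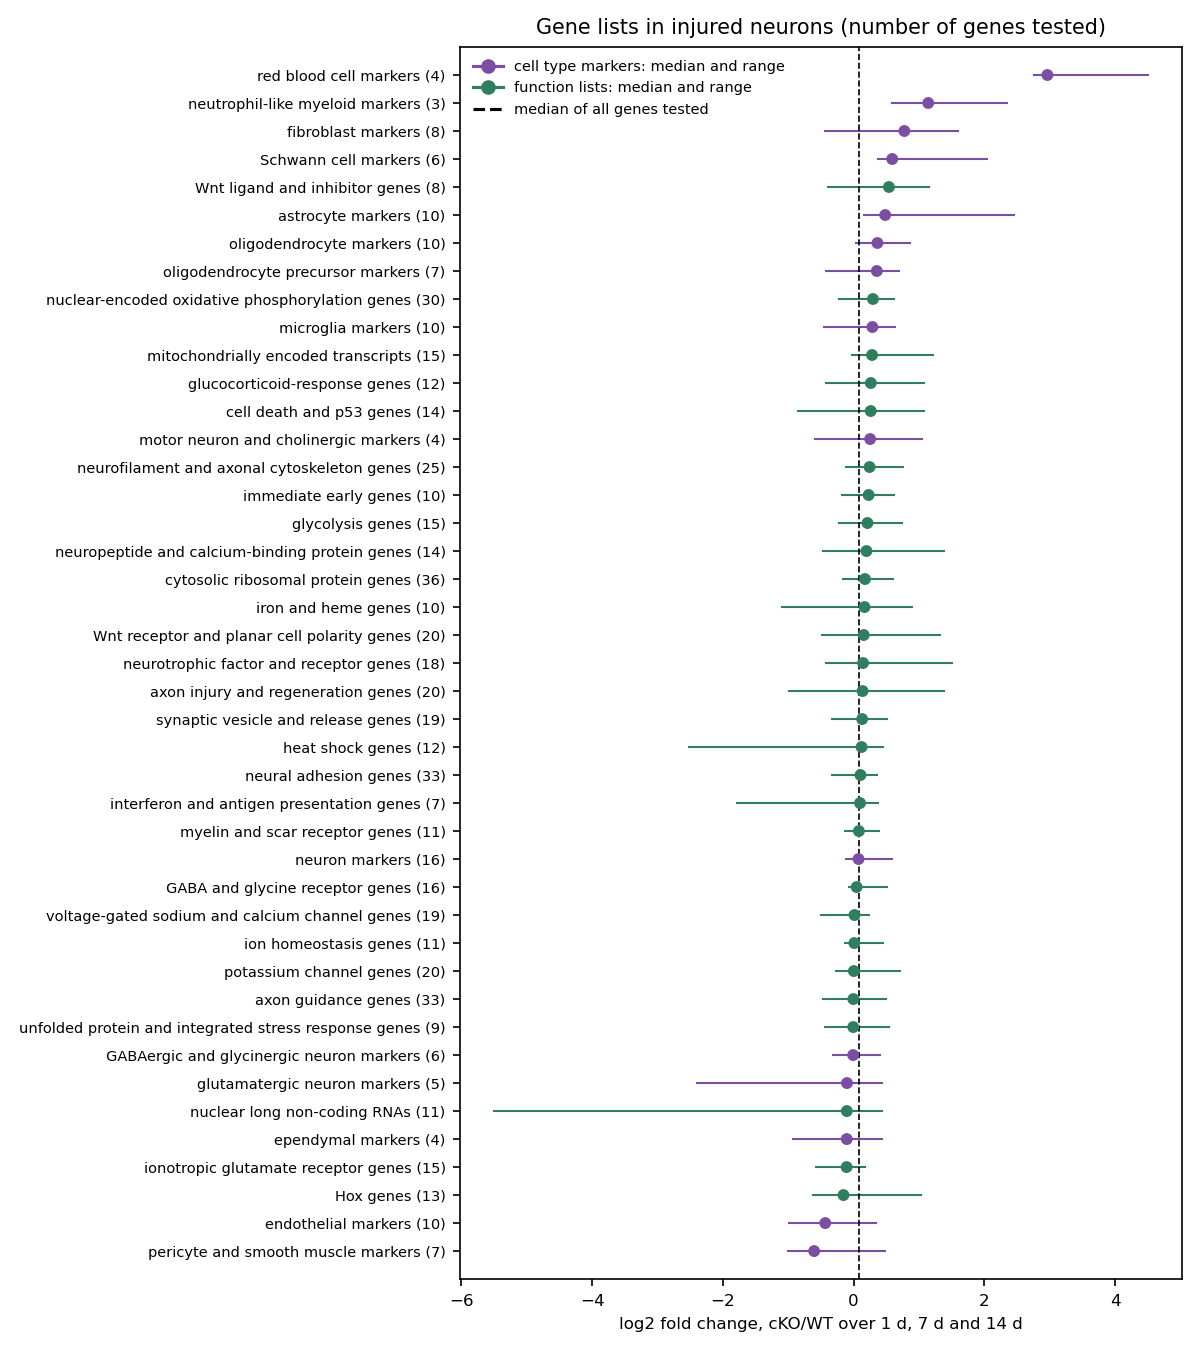
Median (point) and range (line) of the log2 fold change, cKO over WT in injured neurons over the 3 time points, of each list of genes with at least 3 tested, with cell type markers in purple and function lists in green and the median of all genes as a dashed line. Red blood cell markers are highest at 2.97 and pericyte markers lowest at -0.60. The lists of transmission genes lie from -0.11 to 0.20, around the dashed line at 0.09, and Wnt ligand and inhibitor genes at 0.54.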

How the data were processed

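Spinal cord was perfused, sliced and digested in pronase with actinomycin D, and cells were run on the 10x platform. The authors aligned reads with Cell Ranger (version not given in the sources used here) to GRCm38 (mm10) and analysed cells with Seurat in R 4.1.2, per the submitters' processing notes. The deposited counts are UMIs per gene and cell, 55487 genes in 18203 cells, and every cell has at least 201 genes. The deposited cell table gives each cell's mouse, batch, cell type and percent of mitochondrial UMIs (at most 24.992 percent). Neurons are its cell type 3, which includes 122 cells of injured mice that the table moved there from cluster 2. No doublet caller was run here and free RNA was not removed.

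UMIs were summed per mouse over neurons, with at least 10 neurons per mouse. Genes were filtered by expression per genotype and time, scaled by TMM, and tested with edgeR 4.0.16 (R 4.3.3; quasi-likelihood, robust, Benjamini-Hochberg at 0.05) with genotype and time as additive terms, and with 1 mean per group for single time points and for the difference between times. The same code was checked on simulated data with 200 changed genes. Standard errors are the fold change over the root of F. DESeq2 1.42.0 and limma 3.58.1 were alternatives. Shares, depths and summed levels (log2 of CPM + 50) were compared by exact permutation of genotype within time points, over 108 arrangements. The replicate number of the labels equals the deposited batch, and is the replicate block. Whether samples of 1 number vary together was looked at over all genes: the median correlation of deviations was -0.0553 over 10 pairs of groups, 3 of them above 0.1. Positions are from GENCODE vM21, which held 11425 of 11495 genes tested. Intervals and floors cover counting error only. Python 3.11.15 with scipy 1.17.1 and matplotlib 3.10.9 was used.

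Named genes are all genes past the threshold, the 10 per direction with the smallest p where a comparison has fewer than 10 calls (at least 20 UMIs; only some are printed), the 3 most abundant tested members of each list, and 8 genes that the study names for neurons, axons or their signals. Members, 16 marker lists and 28 function lists were chosen with earlier results of these data known. Genes named outside this rule were chosen after their values were seen. Some genes that this rule names are not reported here.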

Additional observations from a re-analysis of the deposited data

Results flagged for a closer look

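In 56 groups of values from the mice of 1 genotype, 9 values of single mice stood far from the rest of their group. This was measured by the gap to the nearest other mouse over the range of the group. The rule aims to mark about 1 in 20 such groups by chance. That rate was not checked for values like these, with zeros and unequal depth, so the 9 are not set against it.

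Among the genes, Tsix was at 42.8 CPM in neurons of cKO 1 d replicate 1, the 1 cKO mouse that reads as female. S100a9 was at 16.9 CPM in WT 14 d replicate 1, high among WT mice, and Gm11942 at 1.86 CPM in WT 14 d replicate 2, the 1 WT mouse with any. Hbb-bt was at 704 CPM in cKO 7 d replicate 2, high among cKO mice.

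Among the summed marker levels in neurons, the red blood cell markers were at 7285 CPM in cKO 7 d replicate 2 and at 402 CPM in WT 7 d replicate 1. In cKO 7 d replicate 2 the Schwann cell markers were also high, at 561 CPM. The microglia markers were at 1377 CPM in cKO 14 d replicate 1, and the motor neuron and cholinergic markers at 169 CPM in cKO 7 d replicate 1, a mouse with 77 neurons.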

How the results depend on the processing

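Over the time points, the 10 calls became 1 with DESeq2, 0 with limma-trend, with the conditions of the cell names, with group means of all 8 conditions and with means over cells of CPM per cell (limma-trend), 5 with only animal numbers of 10047 and above, and 4 with sex from Xist and Y-linked UMIs as a term. With RLE size factors there were 10, with Dcn in place of Hbb-bt. Leaving out 1 mouse at a time gave 2 to 13. With the replicate block there were 9, all among the 10, and Pisd was lost. At 1 d, 0 became 2 with DESeq2, 2142 with limma-trend, 4 without cells moved from cluster 2 and 11 with the cell names, and 0 to 6 leaving out 1 mouse. At 7 d, 3 became 0 with DESeq2, limma-trend or the sex term, 1 with no filter beyond 1 UMI, 1 with the replicate block and 22 with the cell names, and 0 to 6 leaving out 1 mouse. At 14 d, 2 became 0 with DESeq2 or limma-trend, 7 with no filter, 1 with the cell names and 3 with the sex term (none among the 2), and 0 to 5 leaving out 1 mouse. For the difference between times, 0 became 166 with limma-trend and 3 with the cell names, and 0 to 1 leaving out 1 mouse. The block changed no other count or call of the 10 genes. The causes were not tested.

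Signs that reversed were those of Pisd (1.21 with means of all 8 conditions), Tsix (2.89 with the sex term) and Aldh1l1 at 7 d (-0.10 without cKO 7 d replicate 2). Ifitm3 reversed with limma-trend (0.0938), means of all 8 conditions (1.17) and means over cells (0.280). Medians over all genes were 2.01 with means of all 8 conditions, 0.60 with limma-trend and 0.283 with means over cells. They were 0.14 with the sex term and -0.44 at 7 d without cKO 7 d replicate 2. Pisd and Ifitm3 lay below the medians of their fits, and Tsix and Aldh1l1 above. Aldh1l1 at 7 d was at 9.78 without WT 7 d replicate 2 (adjusted p = 0.793), where the WT mouse left has 0 UMIs of it, so that value is no measured fold. None of the reversed values passed the threshold. A gene past no threshold was given no direction; the sign of its value is printed as a number only. The share of neurons differed by 1.01 to 7.39 points over 16 settings and log2 median UMIs by 0.04 to 0.95 over 12, none past the threshold.

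The sex term and the fit on male mice were chosen after seeing the data. With at least 30 neurons per mouse, or without WT 1 d replicate 1, no WT mouse remains at 1 d, so there is no value for 1 d or the difference between times. The fits by animal number and by means over cells were run for the count over the time points only. Depth sets the limits: a gene under 396 CPM has fewer than 3 UMIs in the WT mouse at 1 d, each group has at most 2 mice per time point, and the WT group at 1 d has 1.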

Other observations

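By mouse, Npsr1 in the deposited oligodendrocyte cluster 4 was at 283 CPM in cKO 1 d replicate 2, 993 in cKO 7 d replicate 2, and 357 and 449 in the cKO mice at 14 d, against 0 in the WT mice at 1 and 7 d, 69.0 CPM (13 UMIs) in WT 14 d replicate 1 and 5.50 CPM (4 UMIs) in WT 14 d replicate 2. The 2 shallow cKO mice had 0. In the second oligodendrocyte cluster, number 8, the 4 deep cKO mice ran from 6.85 to 63.3 CPM, and all 5 WT mice were at 0.

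Aldh1l1 differed by cluster in the same mice. In astrocyte cluster 7 the 4 deep cKO mice were at 588 to 719 CPM and the WT mice at 161 to 398 CPM, with the shallow cKO mice at 469 and 140 CPM (13 and 5 UMIs), while in astrocyte cluster 5 pooled levels were 161 CPM in cKO and 182 CPM in WT. In the precursor cluster it was at 137 CPM pooled in cKO and 12.8 CPM in WT. These are descriptions with no test.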
